A study of Homo sapiens with 6 samples.

Results

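Chromosome 19 carries more C2H2 zinc finger genes than any other human chromosome, and the expression of its numbered ZNF genes was read here in DDX17 knockout and control MHCC97H cells. DDX17 is a DEAD-box RNA helicase known to act in transcription and RNA splicing. The genes were taken by name and position: every row of the FPKM table with a ZNF symbol made of a number and at most 1 letter and a locus on chromosome 19. The rule gave 261 of 58302 rows, of which 246 were protein-coding genes and 15 pseudogenes in GENCODE release 29. RNA sequencing of total RNA covered 3 libraries labelled DDX17 KO, called DDX17_KO here, and 3 libraries of a non-target control. Both lines came from MHCC97H, a human hepatocellular carcinoma cell line, and were made by CRISPR/Cas9. The labels do not say whether either line was a single clone or whether libraries came from separate cultures, so p-values measure the spread between these libraries, which may be technical.

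A C2H2 zinc finger is a short fold in which a pair of cysteines and a pair of histidines hold a zinc ion, and each finger reads a few bases of DNA. Many of the proteins encoded on chromosome 19 join a row of fingers to a KRAB box, a domain that recruits the corepressor TRIM28 and, through it, the histone methyltransferase SETDB1. KRAB zinc finger proteins are known as repressors of transposable elements, and the genes arose by repeated tandem duplication. Other finger proteins on the chromosome have no KRAB box.

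The coding sequence of the fingers differed in base composition from member to member, and this composition is shown first because fold changes were later ordered by it. Each stretch below is the first canonical finger of a member and the linker after it, 84 bases in all, read 5′ to 3′ on the coding strand from GENCODE release 29 transcripts on GRCh38. Capitals mark the codons of the zinc-binding cysteines and histidines. The first 3 members are those with the smallest p among members whose DDX17_KO values all lay above the controls, the next 3 are those with the smallest p among members whose DDX17_KO values all lay below them, and ZNF146 was the member with the highest mean. They lie at chr19:51965748-51965831 (minus strand), chr19:52116522-52116605 (minus), chr19:12273577-12273660 (minus), chr19:55622441-55622524 (minus), chr19:55614294-55614377 (plus), chr19:8510888-8510971 (minus) and chr19:36236492-36236575 (plus), in the order printed.
ZNF350: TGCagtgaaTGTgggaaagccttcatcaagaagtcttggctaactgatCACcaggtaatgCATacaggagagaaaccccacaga
ZNF616: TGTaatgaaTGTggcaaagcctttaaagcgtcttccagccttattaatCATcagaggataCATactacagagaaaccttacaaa
ZNF44: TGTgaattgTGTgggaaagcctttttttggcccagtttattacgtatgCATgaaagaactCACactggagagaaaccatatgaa
ZNF784: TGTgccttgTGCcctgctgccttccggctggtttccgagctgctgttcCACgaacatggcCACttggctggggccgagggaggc
ZNF865: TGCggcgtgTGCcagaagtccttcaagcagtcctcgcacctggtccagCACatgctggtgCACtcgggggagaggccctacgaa
ZNF414: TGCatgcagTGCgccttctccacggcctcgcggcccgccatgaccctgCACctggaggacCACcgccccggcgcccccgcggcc
ZNF146: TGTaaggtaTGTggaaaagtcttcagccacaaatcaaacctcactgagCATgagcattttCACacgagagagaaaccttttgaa

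These stretches held 46.4%, 36.9% and 39.3% G and C in ZNF350, ZNF616 and ZNF44, and 40.5% in ZNF146. The values were 65.5%, 63.1% and 77.4% in ZNF784, ZNF865 and ZNF414. The finger cysteines can be written with the codon TGT or TGC, and the choice followed the same split over all canonical fingers of each protein. TGT made up 68.8%, 73.8% and 88.5% of these codons in ZNF350, ZNF616 and ZNF44, against 8.33%, 12.5% and 0% in ZNF784, ZNF865 and ZNF414. In ZNF146 the share was 88.9%. ZNF414 has 1 canonical finger, so its value rests on few codons, whereas ZNF865 has 20.

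Before the members, the libraries and the targeted gene were checked. Depth, estimated from the spacing of low FPKM values, was 5350000 to 10620000 fragments in DDX17_KO and 12340000 to 14550000 in controls. DDX17 had 22.4, 7.64 and 19.1 FPKM in DDX17_KO and 45.7, 41.4 and 43.9 FPKM in controls, without overlap. Its two-sided exact permutation p was 0.1, the smallest that 3 against 3 libraries allow. In limma the difference was -1.48 on the log2 scale (95% interval -2.33 to -0.64, adjusted p = 0.282), and without DDX17_KO replicate 2 the limma adjusted p was 0.0334. The libraries numbered 2 stood apart from their groups in genes ordered by GC content, and results are given with and without them. Over all tested genes, the deviation of a library from the mean of the 6 had a Spearman's rho with GC content of -0.551, 0.350 and -0.552 in DDX17_KO 1, 2 and 3 and of -0.0133, 0.615 and 0.258 in controls 1, 2 and 3. Of 14 markers of the hepatic lineage, the keratin genes KRT8 and KRT18 were abundant in all libraries, while the albumin gene ALB was listed at 0 in each DDX17_KO library and had 0.347, 0.205 and 0.365 FPKM in controls, and 9 of the 14 were listed at 0 in all DDX17_KO libraries. The 10 red cell markers summed to 0.0211, 0.673 and 0.0844 FPKM in DDX17_KO and to 69.9, 54.6 and 62.3 FPKM in controls, with HBB listed at 0 in each DDX17_KO library. The 6 leukocyte markers summed to 2.26 to 3.62 FPKM in DDX17_KO and 1.39 to 1.91 FPKM in controls, and the 8 endothelial and stromal markers to 46.6 to 88.3 and 37.6 to 45.0 FPKM. The part of these marker differences and of depth in the results below was not tested.

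Most members were scarce. Of the 261, 35 were listed at 0 in all 6 libraries, 117 were above 0 but below a mean of 0.5 FPKM, and 109 reached that mean and were tested. A mean of at least 2 FPKM was reached by 28 members, and 5 FPKM by 5. For a transcript of 4076 bases, the median of the tested members, 3 fragments in the shallowest library make 0.138 FPKM, a limit that covers counting error only. All members together summed to 277.8, 190.5 and 260.6 FPKM in DDX17_KO replicates 1, 2 and 3, and to 211.0, 179.5 and 210.2 FPKM in controls 1, 2 and 3. The groups overlapped through DDX17_KO replicate 2, which lay below controls 1 and 3, and the library numbered 2 was the lowest of each group. Members listed at 0 numbered 68, 77 and 74 in DDX17_KO and 87, 94 and 92 in the deeper controls, without overlap. Over all rows the counts at 0 did overlap, at 34061, 36812 and 34648 in DDX17_KO and 35298, 35482 and 35229 in controls. In bulk RNA, fewer cells that express a gene and less RNA per cell cannot be told apart. Of the 117 scarce members, 91 had the higher mean in DDX17_KO and 26 the lower. Of all 14983 rows above 0 and below the filter, 62.5% had the higher mean in DDX17_KO, against 77.8% of these members.

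At the group level the tested members had a median log2 fold change of 0.19 in DDX17_KO over control, against -0.03 over all 15620 genes tested. The fold change is on the log2(FPKM + 1) scale, which understates the change of scarce genes. No member passed an adjusted p of 0.05 in limma in either direction, and over all genes 0% passed as higher and 0.0384% as lower. A fold change above 0 was found for 75 of 109 members (68.8%, against 47.5% of all genes) and below 0 for 34 (31.2%, against 52.5%). At an unadjusted p under 0.05, 15 members were higher in DDX17_KO (13.8%, against 6.31% of all genes) and 4 lower (3.67%, against 7.19%). Groups did not overlap in 18 members that were higher (16.5%, against 8.09% of all genes) and 10 that were lower (9.17%, against 12.6%). Of the tested members, 16 had a mean of at least 0.5 FPKM in DDX17_KO only and 1 in controls only, so the filter itself admitted more members that were higher in DDX17_KO. Over all tested genes the shares were 5.08% and 2.58%, against 14.7% and 0.917% of the members. The other 92 members had a median of 0.12, with 59 above 0 (64.1%, against 46.0% of genes passing in both groups). Among members with a mean of at least 2 FPKM the median was -0.12, so the direction of the median does not hold for the more abundant members. Of these 28, 2 were higher and 3 lower at an unadjusted p under 0.05, against 4.54% and 8.73% of the genes tested at that filter.

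No label pairs the libraries. With the replicate number taken as a block, 27 members were higher and 7 lower at an unadjusted p under 0.05, against 15.1% and 13.4% of all genes. None passed the adjusted threshold with the block in limma, where 0% of all genes passed as higher and 0.0256% as lower. In all 3 same-numbered pairs, 54 members were higher in DDX17_KO (49.5%, against 26.2% of all genes) and 18 lower (16.5%, against 27.5%). The count of 15 higher members at the unadjusted level moved to 40 without DDX17_KO replicate 2, 6 without replicate 1 and 5 without replicate 3, where 16.6%, 5.19% and 3.25% of all genes were higher; the members' shares were 36.7%, 5.50% and 4.59%. Without controls 1, 2 and 3 it was 11, 5 and 9 (10.1%, 4.59% and 8.26%), where 5.31%, 2.38% and 3.44% of all genes were higher. The 4 lower members became 0, 6 and 1 without DDX17_KO replicates 1, 2 and 3, where 4.42%, 19.1% and 4.53% of all genes were lower. Without each control there were 2 lower members, where 4.94%, 3.35% and 4.07% of all genes were lower for controls 1, 2 and 3. Without DDX17_KO replicate 1 the share of higher members was thus close to that of all genes. Without DDX17_KO replicate 2, ZNF260 and ZNF616 passed as higher over all genes, at limma adjusted p values of 0.0399 and 0.0498, where 1.95% of all genes passed as higher and 1.72% as lower; the members' share of 1.83% did not exceed it. With both libraries numbered 2 left out, 6 members passed as higher (ZNF121, ZNF146, ZNF507, ZNF616, ZNF700 and ZNF714), which is 5.50% against 5.51% of all genes, and none as lower, against 3.3%. At the unadjusted level 36 members were then higher and 6 lower, against 15.9% and 18.2% of all genes. With libraries weighted by their fit, 28 members passed as higher and 5 as lower (11.7% and 13% of all genes), and 44 and 9 at the unadjusted level (20.4% and 22.6%).

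**Figure D1:**
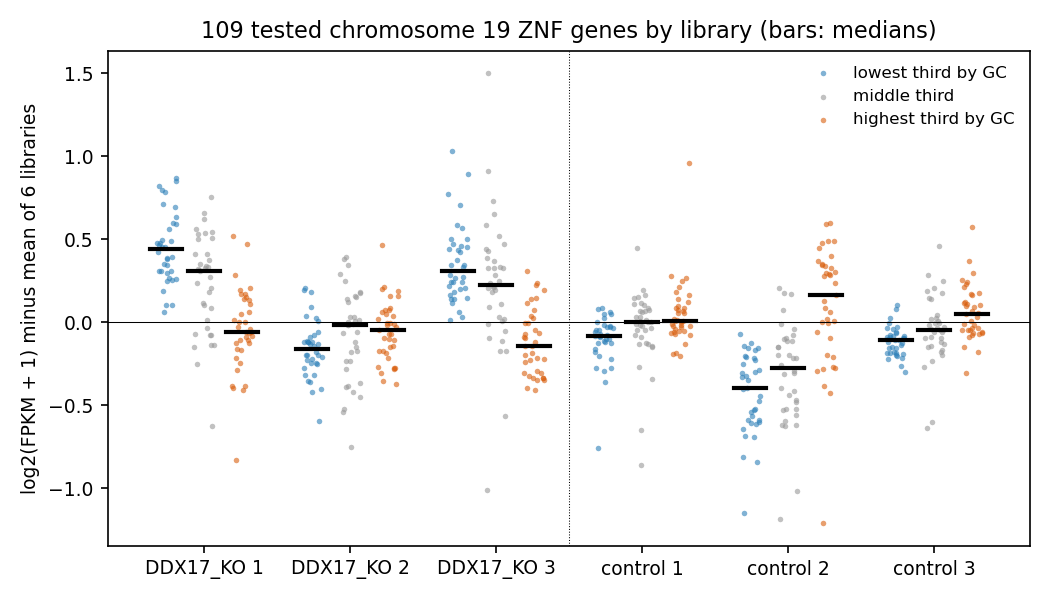
Each point is 1 of the 109 tested members, plotted by library as its log2(FPKM + 1) minus the mean over the 6 libraries and coloured by class of transcript GC content (lowest 36, middle 36, highest 37); bars are medians. The class with the lowest GC has medians of 0.44, -0.16 and 0.31 in DDX17_KO 1, 2 and 3 and of -0.08, -0.40 and -0.11 in controls 1, 2 and 3, while the class with the highest GC lies near or below 0 in DDX17_KO.

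The members split by base composition. The 36 tested members with the lowest transcript GC content (34.1% to 41.5%) had fold changes above 0 in all 36 cases, with a median log2 fold change of 0.43. Of these, 10 passed the filter through their DDX17_KO mean alone, which favours that sign; the other 26 had a median of 0.44. The middle 36 had a median of 0.20, with 28 above 0, and 0.14 with 24 of 32 above 0 without the 4 that passed through DDX17_KO alone. The 37 with the highest GC content (46.2% to 71.1%) had a median of -0.17, with 11 above 0, and -0.19 with 9 of 34 above 0 without the 2 that passed through DDX17_KO alone and the 1 that passed through controls alone. Across the 109 members, Spearman's rho between GC content and fold change was -0.71 and Pearson's r -0.69, and over 15564 tested genes rho was -0.51. Higher fold changes at lower GC content were thus not particular to the members. Shares above 0 over all genes in the same GC ranges were not taken. Genes are not independent replicates, and all points share the same 6 libraries. In the plot of members by library the split was not alike in all libraries. DDX17_KO 1 and 3 lay high for the AT-rich class, and control 2 lay low for it and high for the GC-rich class. The middle and GC-rich classes had medians of 0.003 and 0.005 in control 1 and of -0.014 and -0.044 in DDX17_KO 2. DDX17_KO 2 had a median deviation of -0.16 in the AT-rich class, below control 1 at -0.08 and control 3 at -0.11.

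After the values of each library were corrected for GC content and transcript length, the medians of the 3 GC classes were 0.20, 0.11 and 0.04 from low to high GC. The median of all tested members was then 0.12, against 0.00 over all genes. At an unadjusted p under 0.05, 11 members were higher and 1 lower after the correction, against 8.26% and 7.49% of all genes. With the replicate block added to the correction, 14 were higher and 2 lower, against 11.2% and 10.1%. None passed the adjusted threshold in limma, against 0.00643% and 0.0643% of all genes. Numbered ZNF genes on other chromosomes, 181 of 296 tested, had a median of 0.07 before and 0.11 after the correction. The other rows of chromosome 19, 796 of 2692 tested, had a median GC content of 59.1% and medians of -0.27 before and -0.05 after it. No test set these groups against each other.

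**Figure D2:**
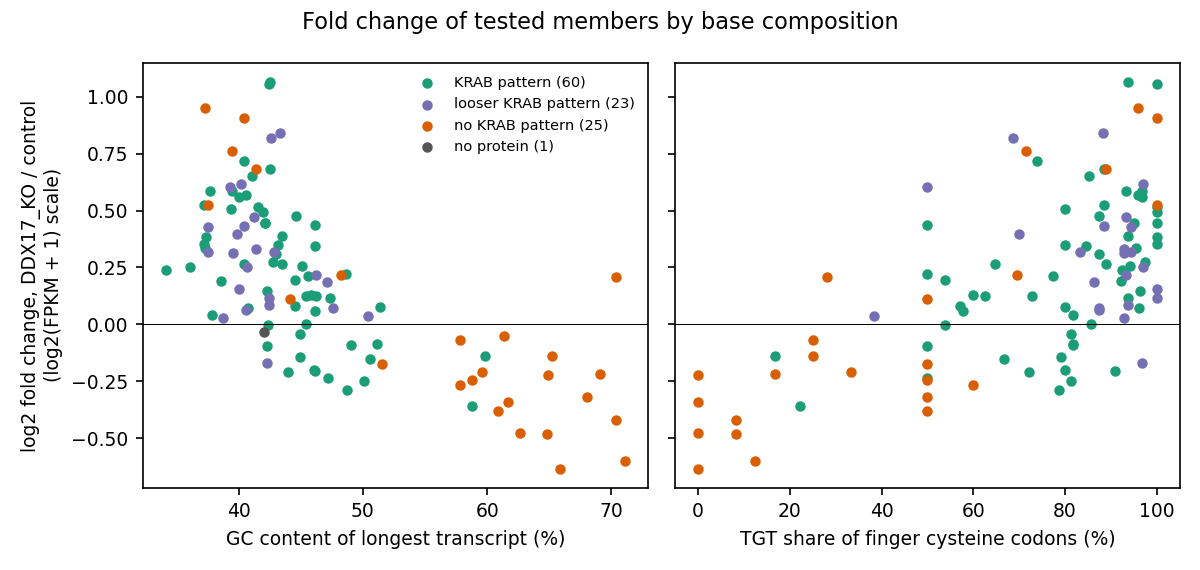
Log2 fold change of the tested members against GC content of the longest transcript (left) and against the share of TGT among finger cysteine codons (right, 106 members with a canonical finger). Members with a KRAB pattern crowd at low GC and high TGT share, where fold changes are mostly above 0, and members with no KRAB pattern reach -0.63 at the GC-rich end.

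The KRAB box was looked for in translations of GENCODE coding sequences by a pattern of conserved residues. The pattern was found in 163 members, 60 of them tested, with a median log2 fold change of 0.23 and 45 above 0. The 48 tested coding members without it had a median of 0.12. That pattern misses known KRAB proteins such as ZNF224 and ZNF350, and a looser pattern added later raised the count to 207, 83 of them tested with a median of 0.25 and 67 above 0. The 25 tested members matched by neither pattern had a median of -0.21, with 8 above 0 and a median GC content of 60.9% against 42.5% in the 83. After the correction for GC content and length the medians were 0.13 with either pattern and 0.07 with neither. The share of TGT among finger cysteine codons had a median of 87.5% with either pattern and 41.7% with neither. Across the 106 members with a canonical finger, this share had a Spearman's rho of 0.61 with the fold change.

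All 18 tested members whose DDX17_KO values lay above every control carried one of the KRAB patterns, as did 83 of the 109 tested members. Of the 18, 13 carried the first pattern and 5 only the looser one, which was added after values were seen. The filter was passed through the DDX17_KO mean alone by 7 of the 18. ZNF350, known as ZBRK1, a KRAB repressor that binds BRCA1 (ENSG00000256683, hg38 chromosome 19, 51964343 to 51986856, minus strand), had 1.63, 1.44 and 1.33 FPKM in DDX17_KO and 0.463, 0.206 and 0.54 FPKM in controls. Each DDX17_KO library was above 1.3 FPKM and each control below 0.6. On the log2 scale ZNF350 differed by 0.82 (SE 0.17, limma adjusted p = 0.244). Its control mean of 0.403 FPKM was below the filter, so it was tested only through its DDX17_KO values. ZNF616, a KRAB protein with 21 canonical fingers (ENSG00000204611, 52113091 to 52139922, minus strand), had 2.37, 1.88 and 2.46 FPKM in DDX17_KO and 1.05, 0.75 and 1.09 FPKM in controls. The groups again did not overlap, with a log2 difference of 0.72 (SE 0.17, limma adjusted p = 0.279). ZNF350 and ZNF616 lie near each other on the long arm. ZNF44 (ENSG00000197857, 12224686 to 12294887, minus strand), a short-arm KRAB gene, had 1.79, 1.14 and 1.40 FPKM in DDX17_KO and 0.591, 0.332 and 0.634 FPKM in controls, without overlap (log2 difference 0.68, limma adjusted p = 0.300). In each of these genes the library numbered 2 was the lowest control.

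ZNF227 had 2.37 ± 0.790 FPKM in DDX17_KO and 0.880 ± 0.460 FPKM in controls (SD, n = 3 each). ZNF845, with 25 canonical fingers, had 1.24 ± 0.133 FPKM in DDX17_KO and 0.525 ± 0.285 FPKM in controls. ZNF700 had 2.60 ± 0.901 FPKM in DDX17_KO and 1.26 ± 0.342 FPKM in controls. Of the next genes, ZNF527, ZNF780A and ZNF791 had control means below the filter. ZNF227, ZNF845, ZNF700, ZNF527, ZNF776 and ZNF780A all had groups that did not overlap, log2 fold changes from 0.49 to 0.84 and limma adjusted p values from 0.334 to 0.369. ZNF791 had 0.624, 1.45 and 4.46 FPKM in DDX17_KO and 0.232, 0.553 and 0.242 FPKM in controls. The log2 fold change of ZNF791 was 1.06, and it was tested only because its DDX17_KO mean of 2.18 FPKM raised it over the filter, against a control mean of 0.342 FPKM. DDX17_KO replicate 3 lay above replicates 1 and 2. ZNF562 had 5.13, 3.09 and 4.69 FPKM in DDX17_KO and 0.999, 0.595 and 3.98 FPKM in controls, so control 3 lay among the DDX17_KO values. ZNF260, in which no KRAB pattern was found, had 2.43, 0.679 and 2.70 FPKM in DDX17_KO and 0.182, 0.328 and 0.876 FPKM in controls. Its DDX17_KO replicate 2 lay among the controls, and the log2 difference was 0.95 (limma adjusted p = 0.359), or 1.31 without that library. The control mean of ZNF260, 0.462 FPKM, was also below the filter.

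**Figure D3:**
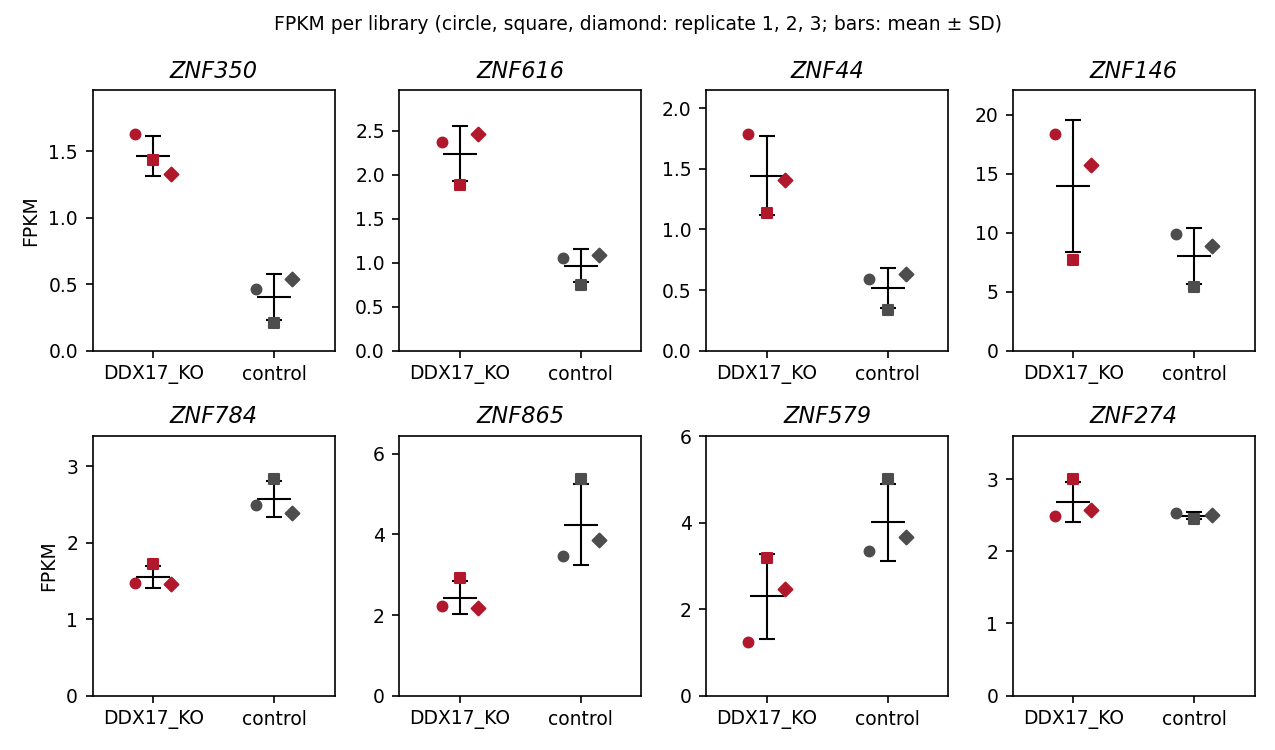
FPKM per library of 8 members in DDX17_KO (left) and control (right), with group means and SD. ZNF350, ZNF616 and ZNF44 lie higher in all DDX17_KO libraries, ZNF784, ZNF865 and ZNF579 lie lower, ZNF146 overlaps through replicate 2, and ZNF274 overlaps.

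GC-rich members with no KRAB pattern led the opposite side. ZNF784 (ENSG00000179922, 55620742 to 55624601, minus strand), a small protein with 6 canonical fingers, had 1.47, 1.72 and 1.46 FPKM in DDX17_KO and 2.49, 2.83 and 2.38 FPKM in controls. Every DDX17_KO value lay below every control, and the log2 difference was -0.48 (SE 0.16, limma adjusted p = 0.352). ZNF865 (ENSG00000261221, 55605405 to 55617269, plus strand), the neighbour of ZNF784 with 20 canonical fingers, had 2.22, 2.91 and 2.17 FPKM in DDX17_KO and 3.48, 5.38 and 3.87 FPKM in controls. Here too each DDX17_KO value lay below each control (log2 difference -0.60, limma adjusted p = 0.354). ZNF579 had 1.25, 3.19 and 2.48 FPKM in DDX17_KO and 3.34, 5.02 and 3.68 FPKM in controls, the largest negative log2 fold change of the tested members at -0.63. ZNF414 had 1.02 ± 0.329 FPKM in DDX17_KO and 1.82 ± 0.421 FPKM in controls (SD, n = 3 each). The transcripts of ZNF784, ZNF865, ZNF579 and ZNF414 held 62.6% to 71.1% G and C. After the correction for GC content and length, 1 member in all was lower at an unadjusted p under 0.05.

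Of the 10 members lower without overlap, 4 carried the KRAB pattern, and these were ZNF8, ZNF324, ZNF557 and ZNF565. ZNF8, whose mouse counterpart binds SMAD proteins and represses their signalling, had 7.82, 5.98 and 6.26 FPKM in DDX17_KO and 8.05, 8.94 and 8.07 FPKM in controls. The gap between the groups of ZNF8 was narrow, at -0.29 on the log2 scale (limma adjusted p = 0.439). ZNF324 had 1.34 ± 0.0967 FPKM in DDX17_KO and 2.01 ± 0.309 FPKM in controls (SD, n = 3 each). ZNF526 and ZNF574, GC-rich neighbours with no KRAB pattern, stood lower without overlap as well, with 4.20 ± 0.299 and 1.799 ± 0.370 FPKM in DDX17_KO and 5.28 ± 0.595 and 2.64 ± 0.467 FPKM in controls.

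The abundant members lay on both sides of 0, and none passed the adjusted threshold with the 6 libraries weighted equally. With libraries weighted by their fit, ZNF146, ZNF121 and ZNF787 passed, at limma adjusted p values of 0.0223, 0.0254 and 0.0233. That weighting passed 11.7% of all genes as higher and 13% as lower, so such a call is common. ZNF146, also called OZF, a protein made almost wholly of fingers and known to be overexpressed in some carcinomas (ENSG00000167635, 36214602 to 36238774, plus strand), had the highest mean. It stood at 18.4, 7.71 and 15.8 FPKM in DDX17_KO and at 9.94, 5.36 and 8.84 FPKM in controls. DDX17_KO replicate 2 lay among the controls, and in each pair of equal number the DDX17_KO value was higher. The log2 difference of ZNF146 was 0.68 (SE 0.35, limma adjusted p = 0.395), and 0.80 (limma adjusted p = 0.0424) without both libraries numbered 2. Without those libraries 5.51% of all genes passed as higher. ZNF121 had 16.5, 7.46 and 14.8 FPKM in DDX17_KO and 8.16, 3.37 and 7.89 FPKM in controls, with the same lower values in the libraries numbered 2. ZNF460 had 15.4, 6.24 and 13.9 FPKM in DDX17_KO and 9.90, 4.15 and 11.7 FPKM in controls, and overlapped. On the other side, ZNF787, with a GC content of 70.3%, had 5.17 ± 1.15 FPKM in DDX17_KO and 7.19 ± 0.836 FPKM in controls (SD, n = 3 each). ZNF580 had 3.52 ± 0.459 FPKM in DDX17_KO and 4.78 ± 1.16 FPKM in controls. ZNF587B, ZNF416 and ZNF749 had log2 fold changes of 0.00, -0.09 and 0.06, with 95% intervals from -0.42 to 0.42, -0.47 to 0.29 and -0.47 to 0.59.

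Members with a described role passed no adjusted threshold with the 6 libraries weighted equally. With libraries weighted by their fit, ZNF224 passed as higher (limma adjusted p = 0.0293), as did ZNF146 above and 11.7% of all genes. ZNF274, which binds the ends of other ZNF genes and recruits SETDB1 there, had 2.48, 3.00 and 2.57 FPKM in DDX17_KO and 2.53, 2.44 and 2.51 FPKM in controls, a log2 difference of 0.08 (95% interval -0.29 to 0.44). ZNF91, a repressor of SVA retrotransposons, was below the filter at 0.422, 0.255 and 0.408 FPKM in DDX17_KO and 0.124, 0.123 and 0.199 FPKM in controls. These values of ZNF91 did not overlap, and they were not tested. ZNF93, a repressor of primate L1 elements, reached at most 0.0601 FPKM, and ZNF382, ZNF536 and ZNF541 at most 0.0417 FPKM. ZNF224, a KRAB repressor of the aldolase A gene, had 2.68, 0.743 and 1.43 FPKM in DDX17_KO and 0.897, 0.293 and 0.76 FPKM in controls. The groups of ZNF224 overlapped through DDX17_KO replicate 2. ZNF675, an inhibitor of TRAF6 signalling, had 0.995, 1.10 and 1.15 FPKM in DDX17_KO and 0.792, 0.459 and 0.72 FPKM in controls, without overlap at a limma adjusted p of 0.383. ZNF473, the U7 snRNP partner of histone pre-mRNA processing, had 3.43 ± 0.747 FPKM in DDX17_KO and 2.80 ± 0.608 FPKM in controls (SD, n = 3 each). ZNF331, an imprinted gene, had 1.87 ± 0.337 FPKM in DDX17_KO and 2.31 ± 0.435 FPKM in controls. The values of ZNF175 were 1.62 ± 1.10 and 1.17 ± 0.511 FPKM, and those of ZNF296 0.437 ± 0.160 and 0.804 ± 0.339 FPKM, in DDX17_KO and controls. The groups of ZNF473, ZNF331, ZNF175 and ZNF296 overlapped.

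Along the chromosome the members formed 17 runs of neighbours less than 1 Mb apart. The run from ZNF175 to ZNF331 on the long arm (51571298 to 53580269) held 42 members, 12 of them tested, with a median log2 fold change of 0.47 and 11 above 0. Its members summed to 28.0, 16.9 and 29.7 FPKM in DDX17_KO and to 17.6, 10.5 and 17.3 FPKM in controls. The next run, from ZNF628 to ZNF446 near the long-arm end (55476332 to 58481230), was the largest, with 60 members and 33 tested, and had a median of -0.09 with 14 above 0. Its sums were 96.5, 81.3 and 88.5 FPKM in DDX17_KO and 95.4, 96.7 and 95.4 FPKM in controls, and overlapped. The tested members of these runs had median GC contents of 41.1% and 48.7%, and after the correction for GC content and length the medians were 0.23 and 0.03.

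The pericentromeric run from ZNF101 to ZNF254 (19668796 to 24129961), the seat of ZNF91, ZNF93 and ZNF675, held 41 members. Only 7 of them were tested and 10 were at 0 in all libraries; the tested members had a median GC content of 37.3%, a median log2 fold change of 0.33 and, after the correction, 0.06. The short-arm runs from ZNF557 to ZNF846 and from ZNF653 to ZNF791 had medians of 0.31 and 0.35 over 11 and 13 tested members, with corrected medians of 0.16 and 0.27. On the long arm, the run from ZNF565 to ZNF573 had a median of 0.29 over 8 tested members and the run from ZNF575 to ZNF296 a median of 0.19 over 16, with corrected medians of 0.16 and 0.09.

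**Figure D4:**
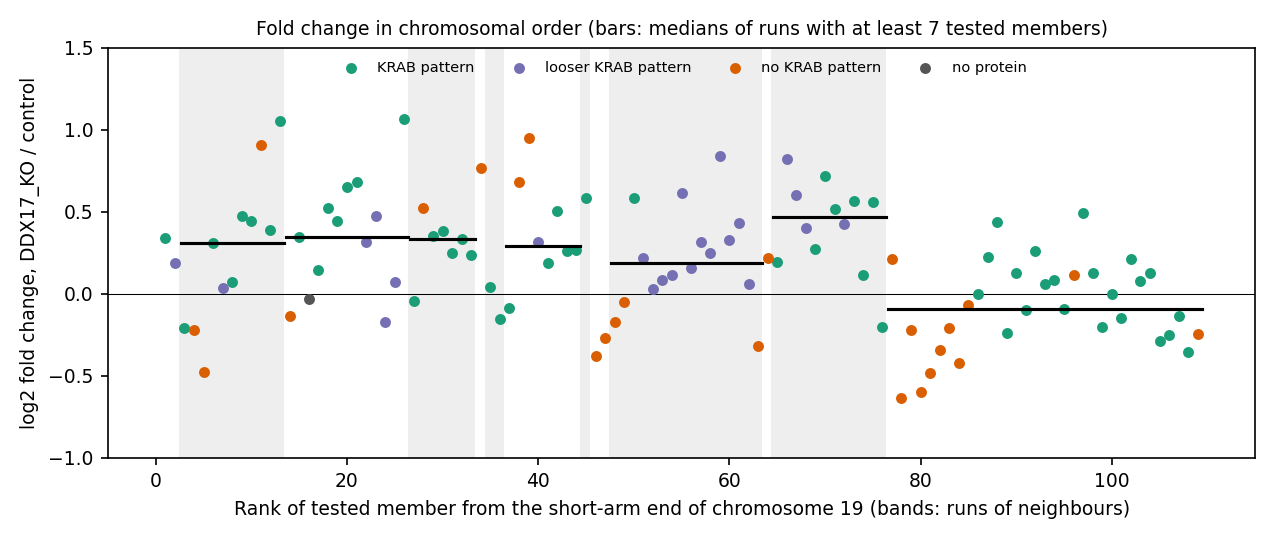
Log2 fold change of the 109 tested members in their order along chromosome 19, coloured by KRAB pattern, with alternating bands for runs of neighbours and bars for the medians of runs with at least 7 tested members. The bars lie between 0.19 and 0.47 except in the last run, at -0.09.

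No gene listed for the KRAB corepressor pathway passed the adjusted threshold with the 6 libraries weighted equally. Over all genes 0% passed as higher and 0.0384% as lower. Of 25 corepressor genes listed, 23 were tested, 11 of them above 0 and 12 below, and the median log2 value was -0.03. At an unadjusted p under 0.05, 1 was higher and 0 lower, against 6.31% and 7.19% of all genes. Groups did not overlap in 0 that were higher and 3 that were lower, against 8.09% and 12.6% of all genes. TRIM28, the corepressor bound by the KRAB box, had 32.2, 45.1 and 26.0 FPKM in DDX17_KO and 43.2, 57.0 and 46.6 FPKM in controls, with a limma adjusted p of 0.376. SETDB1 had 4.41, 8.46 and 5.51 FPKM in DDX17_KO and 5.95, 6.10 and 6.18 FPKM in controls. The DNA methyltransferase DNMT1 had 17.5 ± 2.50 FPKM in DDX17_KO and 23.5 ± 2.82 FPKM in controls, without overlap (SD, n = 3 each). UHRF1, its recruiting factor, had 9.29 ± 2.40 FPKM in DDX17_KO and 12.4 ± 1.72 FPKM in controls, and overlapped. The 3 genes of the list with the smallest p among those above 0 were AT-rich, and they were picked by that p. The chromatin remodeller SMARCAD1 had 6.36, 3.04 and 6.96 FPKM in DDX17_KO and 3.40, 1.84 and 3.16 FPKM in controls. TASOR, a subunit of the HUSH silencing complex listed as FAM208A, had 14.8, 4.03 and 14.1 FPKM in DDX17_KO and 6.52, 2.33 and 4.79 FPKM in controls. The groups of SMARCAD1 and TASOR overlapped through DDX17_KO replicate 2. ATRX, a chromatin remodeller, had 7.92, 1.22 and 7.28 FPKM in DDX17_KO and 2.63, 1.08 and 1.66 FPKM in controls, and overlapped in the same way. Transcripts of SMARCAD1, TASOR and ATRX held 36.0%, 36.0% and 36.8% G and C, and that of TRIM28 63.7%.

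Other C2H2 genes of chromosome 19 with names outside the rule were listed as 18, of which 17 were found and 6 tested, with 3 above and 3 below 0. ZBTB45, a BTB-domain finger protein, had 1.66, 2.14 and 1.25 FPKM in DDX17_KO and 3.21, 3.73 and 2.80 FPKM in controls, without overlap, at -0.67 on the log2 scale (limma adjusted p = 0.318). ZBTB7A, a BTB-domain repressor of fetal globin genes, had 5.33 ± 0.811 FPKM in DDX17_KO and 7.60 ± 1.27 FPKM in controls (SD, n = 3 each). ZSCAN22 had 3.15 ± 0.210 and 4.15 ± 0.552 FPKM, and HKR1 1.00 ± 0.192 and 0.580 ± 0.231 FPKM, in DDX17_KO and controls. Of the tested members, 36 share bases with another locus of at least 0.5 FPKM, ZNF146 with ZNF565 and ZNF791 with ZNF490 among them. No source used here states that strand was used in counting, so fragments of such pairs cannot be separated with certainty. The same holds for close copies such as ZNF587 and ZNF587B or ZNF780A and ZNF780B.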

How the data were processed

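Gene-level FPKM of 6 libraries were deposited by the authors in 1 table. Per the submitters' processing notes, the build was hg38 and the tools included HISAT2, StringTie, CASAVA 1.8 and edgeR, with no roles stated. What annotation, strand setting and filters were used is not given in the sources used here. Deposited FPKM fell on steps: for genes with 1 annotated transcript, at least 99.97% of values up to 20 fragments lay within 0.05 of a whole multiple of a step per library, which gave the estimated depths. Values were put on the log2(FPKM + 1) scale and tested two-sided in limma 3.58.1 (R 4.3.3) with its intensity trend. Genes whose mean reached 0.5 FPKM, 15620 in all, shared 1 Benjamini-Hochberg adjustment. The threshold was an adjusted p of 0.05. DDX17 was also compared by an exact permutation test over 20 arrangements (SciPy 1.17.1). The fit was also run on simulated data with independent noise for each gene. Those data held no shift of a library by GC content, so they do not cover that feature of these libraries.

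GENCODE release 29 supplied gene types, the length and GC content of the longest transcript and the coding sequences, translated to find fingers and KRAB boxes; 254 of 261 members had the same locus there, and 99.6% of tested genes had a GC content. A protein table was not used here. GC content and length were corrected by splines with 4 degrees of freedom each. The check of pairing, a correlation across genes of deviations from group means, gave 0.30, 0.55 and 0.21 for replicates 1, 2 and 3, each over 0.1. No label states such pairing, and correlations between libraries of unlike number are not given. Deviations within a group sum to 0, so a trait shared by the libraries numbered 2 alone would raise all 3 values. The check therefore cannot show that replicates 1 or 3 were paired.

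Members and gene lists were chosen with earlier results of these data known. Named were DDX17, members past the threshold (none), up to 10 per direction with the smallest p among members whose groups did not overlap, the 10 with the highest mean, the 3 largest fold changes per direction, tested members with a described role, and up to 3 per direction from the corepressor and other C2H2 lists. SETDB1 and members with a described role below the filter were added for their role. The printed sequences, the looser KRAB pattern (searched in the first 200 residues) and the codon shares were chosen after values were seen. Alternatives are given in the closing section.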

Additional observations from a re-analysis of the deposited data

How the results depend on the processing

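Members called higher numbered 0 with the 6 libraries weighted equally and 28 with array weights, 2 (1.83%) without DDX17_KO replicate 2 and 6 (5.50%) without both libraries numbered 2, where 1.95% and 5.51% of all genes passed; members called lower numbered 5 with array weights and 0 in the other settings. Array weights gave DDX17_KO replicate 2 a weight of 0.15, control replicate 2 0.41 and control replicate 3 6.91, and passed 11.7% of all genes as higher and 13% as lower. At an unadjusted p under 0.05 the 15 higher members became 44 with array weights, 27 with the replicate block, 36 without both libraries numbered 2 and 2 with a mean of at least 2 FPKM, where 28 members are tested, against 20.4%, 15.1%, 15.9% and 4.54% of all genes; single libraries left out gave 5 to 40, against 2.38% to 16.6% of all genes. The 4 lower members became 9 with array weights, 7 with the replicate block, 1 with the GC and length correction and 2 with that correction and the block, against 22.6%, 13.4%, 7.49% and 10.1% of all genes; single libraries left out gave 0 to 6, against 3.35% to 19.1%.

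The median of the tested members kept its sign, from 0.04 without a filter to 0.30 with a pseudocount of 0.1, except at -0.12 with a mean of at least 2 FPKM. With the looser KRAB pattern the median of members without one was -0.21 in place of 0.12. The log2 fold change of DDX17 passed the threshold with array weights (-1.11, limma adjusted p = 0.0127), without both libraries numbered 2 (-1.08, 0.0349) and without DDX17_KO replicate 2 (-1.04, 0.0334); single libraries left out gave -1.76 to -1.04, with adjusted p up to 0.79.

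Of 37 named members, 31 turned in no alternative. Much of this was fixed in advance. The replicate block, the filters, the restriction to protein-coding genes and the trend setting leave the fold change of a gene as it was. Members named because their groups did not overlap cannot turn when libraries are dropped. With the GC and length correction, with and without the block, the log2 fold change of ZNF565 was 0.10, that of ZNF416 was 0.038, that of ZNF296 was 0.028 and that of ZNF587B was -0.0084. That of ZNF587B was -0.032 with array weights, -0.00071 with quantile normalization and -0.0022 without both libraries numbered 2. When 1 library was dropped at a time, ZNF587B ran from -0.091 to 0.090, ZNF749 from -0.091 to 0.28 and ZNF175 from -0.041 to 0.62. At the adjusted threshold the replicate block changed no call of a member, while the unadjusted counts moved as given above. The causes of these changes were not tested. Depth limits members under 0.138 FPKM in the shallowest library.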
